A study of Mus musculus with 6 samples.

Results

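The vacuolar ATPase (V-ATPase) is the proton pump that acidifies lysosomes, endosomes and phagosomes, and 10 of its genes were followed in macrophages of the injured mouse sciatic nerve. They were taken by symbol: Atp6v0d2, whose product is found in few tissues, and 9 genes of the commonly used form of the pump. All 10 were present among the 24822 named rows of the expression tables, and all 10 were among the 11354 genes that could be tested. The macrophages carried CD64 and CD11b, lacked SiglecF and Ly6G, and were divided by a fluorescent reporter into recruited ECFP+ and resident EGFP+ cells. Both groups came from the nerve on the injured side of C57BL/6 mice of genotype Macblue x Cx3cr1egfp/+, 14 days after CCI, the injury given in the labels, and there was no uninjured group. Recruited and resident cells were each represented by 3 libraries of about 400 cells, and every library pooled the nerves of 3 mice, whose age the labels used here do not state. All cells of both groups carried the same alleles, with EGFP in place of 1 copy of Cx3cr1 and ECFP from the Macblue transgene, which is driven by a modified Csf1r promoter, so that membership of a group rests on the sort.

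The pump has a cytosolic part, V1, which splits ATP, and a membrane part, V0, which carries protons. In V1 the A and B subunits form the head that hydrolyses ATP, and in V0 a ring of c subunits turns against the a subunit. Subunit d sits on the ring and joins it to the central stalk of V1. In mouse it has a common form, Atp6v0d1, and a form known from osteoclasts and some macrophages, Atp6v0d2, which takes part in the fusion of osteoclast precursors. Macrophages use the pump to ripen phagosomes and to activate lysosomal hydrolases, and in an injured nerve they take up myelin debris.

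The libraries held 16668691 to 21289053 expected counts in recruited and 19916757 to 27510960 in resident cells. All 8 macrophage marker genes had counts in every library, and they summed to 35572 to 46464 CPM in recruited and 37099 to 40028 CPM in resident libraries (CPM, counts scaled to library size with TMM factors). Lyz2 alone made up most of each sum, with 30003 to 40440 CPM in recruited and 32523 to 35534 CPM in resident libraries. Csf1r was read at 1181 to 1604 against 999 to 1484 CPM, and Cx3cr1 at 9.48 to 58.3 against 33.5 to 91.8 CPM. Itgam, which encodes the sort marker CD11b, averaged 946 CPM in recruited and 515 CPM in resident libraries without overlap (adjusted p = 0.137, edgeR). Resident replicates 2 and 3 stood apart from the other libraries, with a Pearson r of at most 0.880 to any other library in log2 CPM across genes, against 0.932 or more for the best match of each of the other 4. Of the markers of other cell types, those of neutrophils summed to 167 to 282 CPM in recruited and 102 to 135 CPM in resident libraries. Ly6g and Mpo were at 0 throughout, while S100a8 and Csf3r were read at 29.0 to 106 CPM in every library. Mmp8, chosen after its values were seen, was read at 33.4 to 89.0 CPM in recruited and 0.0456 to 8.63 CPM in resident libraries. Its groups did not overlap, and it did not pass (adjusted p = 0.138, edgeR). In resident replicate 3 it lay under the 0.137 CPM that 3 counts give. S100a8, S100a9 and Csf3r overlapped between the groups. Dendritic cell markers summed to 118 to 238 against 196 to 761 CPM and fibroblast markers to 5.68 to 12.2 against 22.4 to 55.2 CPM. Most of each dendritic sum was Cd209a and Clec10a. Cd209a was read at 56.0 to 169 against 103 to 588 CPM, and Clec10a at 37.8 to 50.3 against 78.9 to 150 CPM. Xcr1 and Clec9a were at no more than 1.29 CPM in any library. Schwann cell markers summed to 239 to 531 CPM in recruited and 233 to 294 CPM in resident libraries, with Sox10 at 0. Most of each Schwann sum was Pmp22, at 180 to 498 CPM in recruited and 195 to 237 CPM in resident libraries. The part of these cells in the results below was not tested.

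None of the 10 subunit genes passed the test between the groups, while all 10 had a higher fitted mean in recruited macrophages. Atp6v1a, the A subunit of the ATP-splitting head, had a 2.02-fold higher level in recruited cells, at 533 ± 36.3 CPM against 264 ± 57.9 CPM in resident cells (SD, n = 3 each), which did not pass (adjusted p = 0.0768, edgeR quasi-likelihood). Atp6v0d2 had a similar fold of 2.11, but 1 recruited library carried most of it. The other 8 genes were 1.11-fold to 1.41-fold higher, by fits that did not pass. The median log2 difference, recruited minus resident, was 0.40 over the 10 genes and 0.01 over all tested genes. Of all tested genes, 51.0% had a positive log2 difference. In these bulk libraries a change in RNA per cell and a change in the share of cells carrying a transcript cannot be told apart.

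Over all genes, edgeR's quasi-likelihood test called 7 of 11354 higher in recruited cells at a threshold of 0.05 on adjusted p, or 0.0617%, and 29 were called lower, or 0.255%. Against that background, edgeR called 0 of the 10 subunit genes in either direction. At an unadjusted p under 0.05, 6 of 10 were higher in recruited cells and 0 were lower, where 8.13% of all tested genes were higher at that level. DESeq2 called 2 of the 10, Atp6v1a and Atp6v1b2, both higher in recruited cells. Of the 11759 genes to which it gave an adjusted p, it called 320 higher and 406 lower. The recruited libraries lay wholly above the resident ones for 6 of 10 genes, against 12.2% of all tested genes, and wholly below for 0 of 10, against 12.6%. These 6 were Atp6v0a1, Atp6v1a, Atp6v1b2, Atp6v1h, Atp6ap1 and Atp6ap2.

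**Figure D1:**
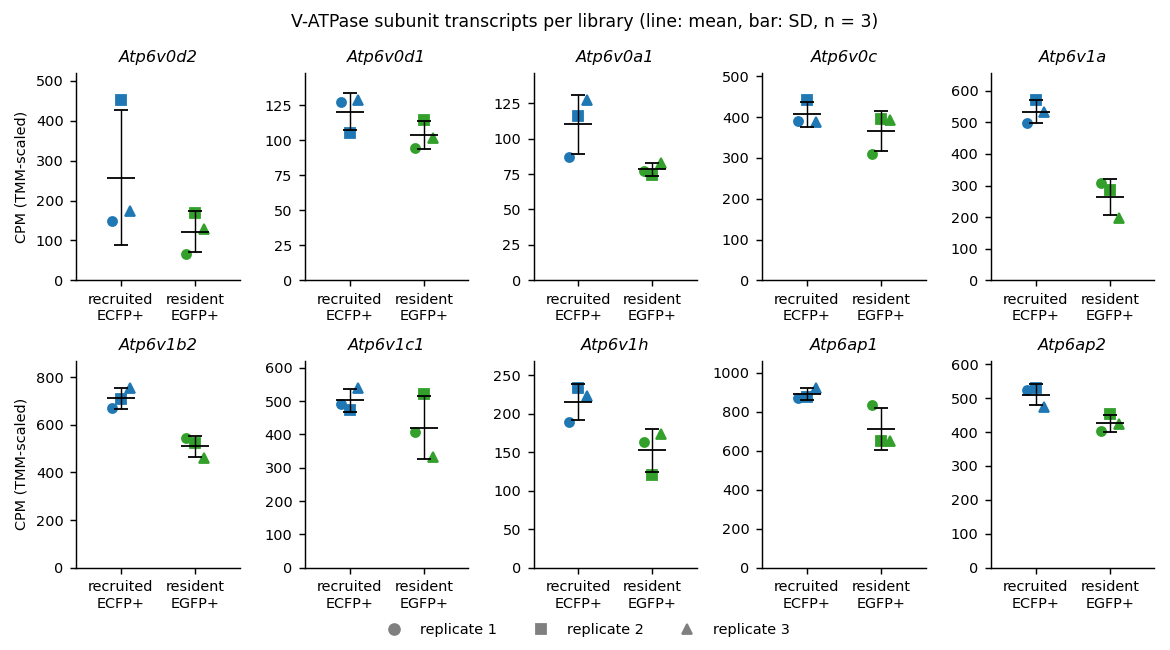
CPM of the 10 subunit genes in each library, 3 recruited (blue, left) and 3 resident (green, right); symbols give the replicate, horizontal lines the mean and bars the SD. Atp6v1a shows the widest gap between groups, with recruited libraries at 497 CPM or more and resident libraries at 307 CPM or less, while Atp6v0d2 is high in recruited replicate 2 alone.

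Promoter windows were available for 6 of the 10 genes (RefSeq, GRCm38.p6, 250 bases before to 50 after each annotated start) and are shown for the 3 that hold a motif of the TFEB, TFE3 and MITF factors, which are known to bind promoters of lysosomal genes. On both strands CACGTG was searched, and TCATGTG as a variant form of it, which shares no exact match with the first. CACGTG was found in windows of Atp6v1a and Atp6v0d1, and in those of 8.09% of all genes. TCATGTG was found in a window of Atp6v0c, and in those of 4.31% of all genes. Capitals mark the matches, which begin 131 bases before the start used for Atp6v1a, 3 bases before that of Atp6v0d1 and 17 bases before 1 of the 3 starts of Atp6v0c:
Atp6v1a, chr16:44139210-44139509, minus strand: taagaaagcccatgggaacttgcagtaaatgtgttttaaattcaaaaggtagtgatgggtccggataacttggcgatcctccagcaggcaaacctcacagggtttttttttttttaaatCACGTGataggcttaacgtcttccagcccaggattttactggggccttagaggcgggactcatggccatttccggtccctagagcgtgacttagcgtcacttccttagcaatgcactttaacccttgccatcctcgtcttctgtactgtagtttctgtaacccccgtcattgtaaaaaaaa
Atp6v0d1, chr8:105566015-105566314, minus strand: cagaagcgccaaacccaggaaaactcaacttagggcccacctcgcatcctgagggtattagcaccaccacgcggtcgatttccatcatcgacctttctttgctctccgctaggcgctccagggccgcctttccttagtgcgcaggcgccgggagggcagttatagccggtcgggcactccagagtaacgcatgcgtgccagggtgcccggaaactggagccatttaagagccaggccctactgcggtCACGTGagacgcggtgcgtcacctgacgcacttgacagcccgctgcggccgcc
Atp6v0c, chr17:24169401-24169700, minus strand: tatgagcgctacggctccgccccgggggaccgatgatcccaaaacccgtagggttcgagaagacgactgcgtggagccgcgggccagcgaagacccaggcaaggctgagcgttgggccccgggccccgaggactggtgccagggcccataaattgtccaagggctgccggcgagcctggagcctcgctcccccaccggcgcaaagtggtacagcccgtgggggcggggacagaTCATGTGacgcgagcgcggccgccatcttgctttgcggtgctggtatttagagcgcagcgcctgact
The genes with a match ranged from a log2 difference of 1.01 for Atp6v1a to 0.15 for Atp6v0c. In Atp6v0d1 the match is part of GTCACGTG, a form in the windows of 2.55% of all genes. Of 13 further subunit genes with a window, CACGTG occurred in 2, Atp6v0b and Atp6v0e. The span of Atp6v1a reaches 44139702 on the minus strand, so the start used and the match before it lie inside the gene. No window for a start at that outer end was available. The match of Atp6v0c also lies inside the span of its gene, which reaches 24169678. A match describes the letters in these windows only.

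Of the V1 genes, Atp6v1a had the largest difference. It was read at 497, 569.8 and 532 CPM in recruited replicates 1 to 3 and at 307, 287 and 198 CPM in resident replicates 1 to 3. Every recruited library was above every resident one, and resident replicate 3 was the lowest of all 6. The log2 difference was 1.01 ± 0.18 SE, the 58th smallest p of the whole test. Atp6v1b2, the widely expressed B subunit of the head, was read at 670.3, 706 and 756 CPM in recruited and 545, 523 and 460.3 CPM in resident libraries. Its groups did not overlap either, and the difference was smaller (log2 difference 0.48 ± 0.12 SE, adjusted p = 0.138, edgeR).

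Atp6v1h encodes the H subunit, which holds V1 to V0 and keeps free V1 from splitting ATP. It was read at 189, 234 and 223 CPM in recruited and 163, 121 and 174 CPM in resident libraries (log2 difference 0.50 ± 0.17 SE, adjusted p = 0.209, edgeR). The lowest recruited and the highest resident library were close, but the groups did not overlap. Atp6v1c1 encodes the C subunit, which leaves the pump when V1 and V0 come apart. Its level was 492, 474 and 541 CPM in recruited and 408, 521 and 332 CPM in resident libraries, and resident replicate 2 lay within the recruited range (log2 difference 0.26 ± 0.17 SE, adjusted p = 0.507, edgeR).

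In V0, Atp6v0d2 varied more between libraries than any other of the 10. It was read at 148, 452 and 174 CPM in recruited replicates 1 to 3 and at 67.3, 169 and 129.8 CPM in resident replicates 1 to 3. Recruited replicate 2 was far above the rest, resident replicate 1 was the lowest, and the other 4 libraries of both groups lay between 129.8 and 174 CPM. The log2 difference was 1.08 ± 0.46 SE (adjusted p = 0.293, edgeR). Without recruited replicate 2 it was 0.41 (adjusted p = 0.747), and without resident replicates 2 and 3 it was 1.94 (adjusted p = 0.519). Atp6v0d1, the common d subunit, was read at 127.6, 105 and 128 CPM in recruited and 94.5, 115 and 102 CPM in resident libraries. Its groups overlapped and its log2 difference was 0.22 ± 0.15 SE (adjusted p = 0.509, edgeR).

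The 2 d genes could be set against each other in each library, per length, in FPKM (fragments scaled to transcript length and library size). Atp6v0d2 stood at 64.2, 192 and 75.8 FPKM in recruited and 30.1, 71.03 and 54.7 FPKM in resident libraries, and Atp6v0d1 at 89.9, 72.8 and 90.7 FPKM in recruited and 68.4, 78.1 and 69.2 FPKM in resident libraries. Atp6v0d2 thus made up 41.7, 72.6 and 45.5% of d subunit FPKM in recruited and 30.6, 47.6 and 44.1% in resident libraries. Atp6v0d1 was the more abundant form in 5 of 6 libraries, and recruited replicate 2 was the exception. The log2 ratio of Atp6v0d2 to Atp6v0d1 in CPM averaged 0.92 ± 1.03 in recruited and 0.14 ± 0.55 in resident libraries (SD, n = 3 each). The difference of 0.78 had p = 0.5 in a two-sided exact permutation test, where 3 against 3 libraries cannot give less than 0.1, and it was 0.18 without recruited replicate 2 and 0.46 without resident replicate 1. A shift from the common to the restricted d subunit was therefore not detectable with these libraries.

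**Figure D2:**
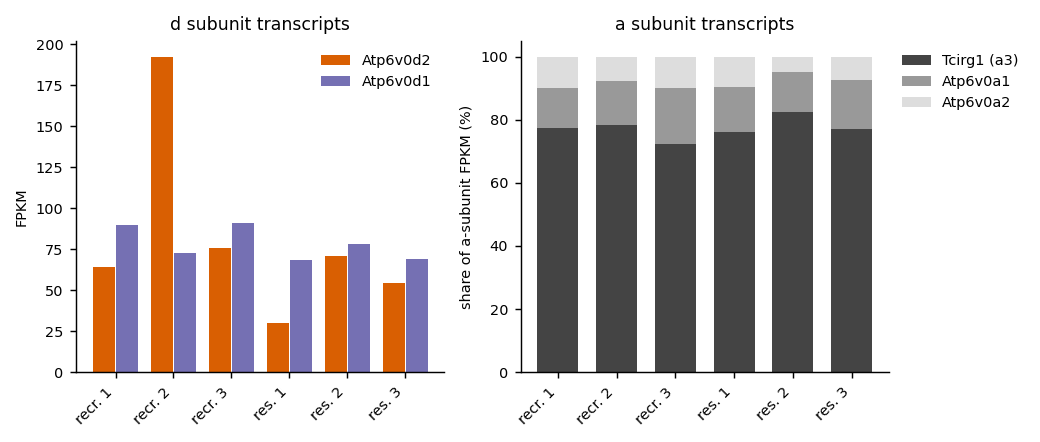
Left, FPKM of Atp6v0d2 and Atp6v0d1 in each library, recruited then resident; right, the share of a subunit FPKM held by Tcirg1, Atp6v0a1 and Atp6v0a2. Atp6v0d2 exceeds Atp6v0d1 in recruited replicate 2, at 192 against 72.8 FPKM, and Tcirg1 holds 72.4 to 82.4% of a subunit FPKM in all 6 libraries.

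Full-length exact reads of the d genes were not open to confusion with each other at the read length used. Trimmed or mismatched reads were not covered. Of the 75-base stretches in annotated Atp6v0d2 and Atp6v0d1 transcripts (GENCODE M21, GRCm38), 0 occurred in transcripts of any other gene. Among the other members, 9.24% of the stretches of Atp6v0c were shared with its pseudogenes Atp6v0c-ps1 and Atp6v0c-ps2, so the level of Atp6v0c depends on how such reads were divided. The share was under 1% for each of the other 7. By the RefSeq annotation of GRCm38.p6, Atp6v0d2 lies on chromosome 4 from 19876838 to 19922566, Atp6v0d1 on chromosome 8 from 105524461 to 105566064 and Atp6v1a on chromosome 16 from 44085402 to 44139702. The span of Atp6v1b2 overlaps Slc18a1 and that of Atp6v0a1 holds Mir6928, and the labels used here do not say whether counting used strand.

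Atp6v0a1, 1 of the a subunits against which the c ring turns, was the least abundant of the 10 per length. It was read at 87.04, 116 and 127 CPM in recruited and 77.2, 74.4 and 83.00 CPM in resident libraries, without overlap (log2 difference 0.49 ± 0.17 SE, adjusted p = 0.212, edgeR). Atp6v0c, the proton-carrying ring subunit, was read at 389.8, 442 and 389 CPM in recruited and 311, 395 and 393 CPM in resident libraries. Resident replicates 2 and 3 lay between recruited replicates 1 and 3 below and recruited replicate 2 above, and the log2 difference was 0.15 ± 0.14 SE (adjusted p = 0.646, edgeR).

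The accessory genes Atp6ap1 and Atp6ap2 encode membrane proteins that help to assemble the pump, and the product of Atp6ap2 is also known as the prorenin receptor. Atp6ap1 was read at 869, 878 and 924 CPM in recruited and 835, 648 and 650.3 CPM in resident libraries. The groups did not overlap, but resident replicate 1 came close to the recruited range (log2 difference 0.32 ± 0.14 SE, adjusted p = 0.287, edgeR). Atp6ap2 was read at 523, 531 and 474 CPM in recruited and 402, 453 and 423 CPM in resident libraries, again without overlap (log2 difference 0.26 ± 0.12 SE, adjusted p = 0.326, edgeR).

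Ordered by mean FPKM in recruited cells, the 10 genes ran Atp6ap1 (445), Atp6v0c (424), Atp6v1b2 (279), Atp6v1c1 (263), Atp6ap2 (234), Atp6v1a (133), Atp6v1h (115), Atp6v0d2 (111), Atp6v0d1 (84.5) and Atp6v0a1 (29.0). The ranges of neighbours overlapped for Atp6ap1 with Atp6v0c, Atp6v1b2 with Atp6v1c1, Atp6v1h with Atp6v0d2 and Atp6v0d2 with Atp6v0d1, so those places are not set by these data. In resident cells Atp6v0c had a mean of 376 FPKM and Atp6ap1 of 355, with overlapping ranges, and Atp6v0a1 was again last with 20.5. Atp6v1a stood sixth in recruited and eighth in resident cells, where its 66.0 FPKM lay between Atp6v0d1 at 71.9 and Atp6v0d2 at 51.9 and overlapped with both.

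The remaining genes of the pump showed which isoforms these macrophages used. Of 17 further subunit genes, 12 had a count in some library, 10 could be tested, edgeR called 0 and DESeq2 called 1. By edgeR 2 were higher in recruited cells at an unadjusted p under 0.05, where 8.13% of all tested genes were. Atp6v1b1, Atp6v1e2, Atp6v1g3, Atp6v0a4 and Atp6ap1l, mostly forms known from kidney or testis, were at 0 in all 6 libraries, and 3 counts, the limit that 0 allows, are 0.105 to 0.179 CPM. Among a subunits, Tcirg1, which encodes the a3 form of lysosomes and osteoclasts, was the most abundant, with 141, 169 and 139 FPKM in recruited and 112, 124 and 106 FPKM in resident libraries. It held 72.4 to 78.2% of a subunit FPKM in recruited and 76.0 to 82.4% in resident libraries, and Atp6v0a1 held 12.6 to 17.6% and 12.7 to 15.5%. Atp6v0a2, an a form of the Golgi and endosomes, was read at 92.8, 88.9 and 98.7 CPM in recruited and 71.3, 39.0 and 54.7 CPM in resident libraries, without overlap (log2 difference 0.76 ± 0.22 SE, adjusted p = 0.161, edgeR). It was the gene that DESeq2 called (adjusted p = 0.0420). Tcirg1 did not overlap between groups either, and its log2 difference was 0.39 ± 0.14 SE (adjusted p = 0.229, edgeR).

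**Figure D3:**
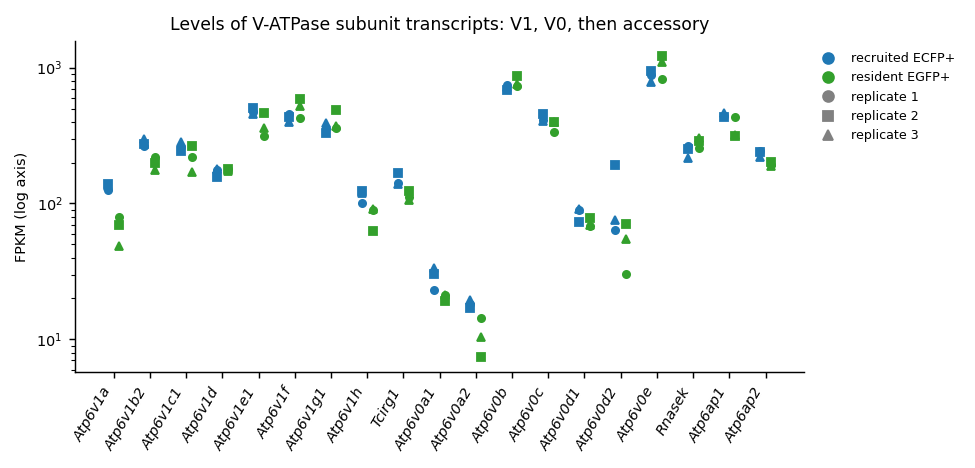
FPKM on a log axis of 19 pump genes in each library, recruited (blue) left of resident (green), ordered by V1, V0 and accessory genes. The small membrane subunits Atp6v0e and Atp6v0b are the most abundant, with means of 865 and 718 FPKM in recruited and 1050 and 789 FPKM in resident libraries, and Atp6v0a2 the least; Atp6v1g2, near 1 FPKM, is not drawn.

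Of the further tested subunits, 6 had the opposite sign. Atp6v1f and Atp6v1d of the central stalk, Atp6v1g1 of the peripheral stalks, and the membrane subunits Atp6v0b, Atp6v0e and Rnasek all had negative log2 differences, from -0.31 for Atp6v0e to -0.06 for Atp6v1d, and none passed (adjusted p of 0.413 or more, edgeR). Atp6v1e1, also of the peripheral stalks, had a log2 difference of 0.32 (adjusted p = 0.409, edgeR). Atp6v1g2, at no more than 2.69 CPM in any library, had a log2 difference of 0.80 with an SE of 1.42.

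The sign went with transcript length, among pump genes and over the whole table. Effective lengths were taken from the ratio of deposited counts to FPKM, and tested genes were divided into 4 length classes of equal size. The class of shortest genes, up to 1534 bases, had a median log2 difference of -0.32 with 22.5% of its genes positive, and the 2 classes of longest genes had medians of 0.18 and 0.21. The shortest class held 10 pump genes, Atp6v0c and Atp6v0d1 among them, of which 4 were positive, with a median of -0.11. The 10 longer pump genes were all positive, with a median of 0.49, where 60.2% of all longer genes were. With the length trend of each library removed, 10 of 10 members and 10 of 10 further tested subunits were positive, and their medians were 0.36 and 0.26, where that of all genes was 0.00. Of all tested genes, 5700 of 11354 were then positive. Atp6v1a then had 0.77 (adjusted p = 0.0963) and Atp6v0d2 1.00 (adjusted p = 0.444), and no pump gene passed. The further subunits also changed balance without resident replicates 2 and 3, where 8 of 10 were positive.

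**Figure D4:**
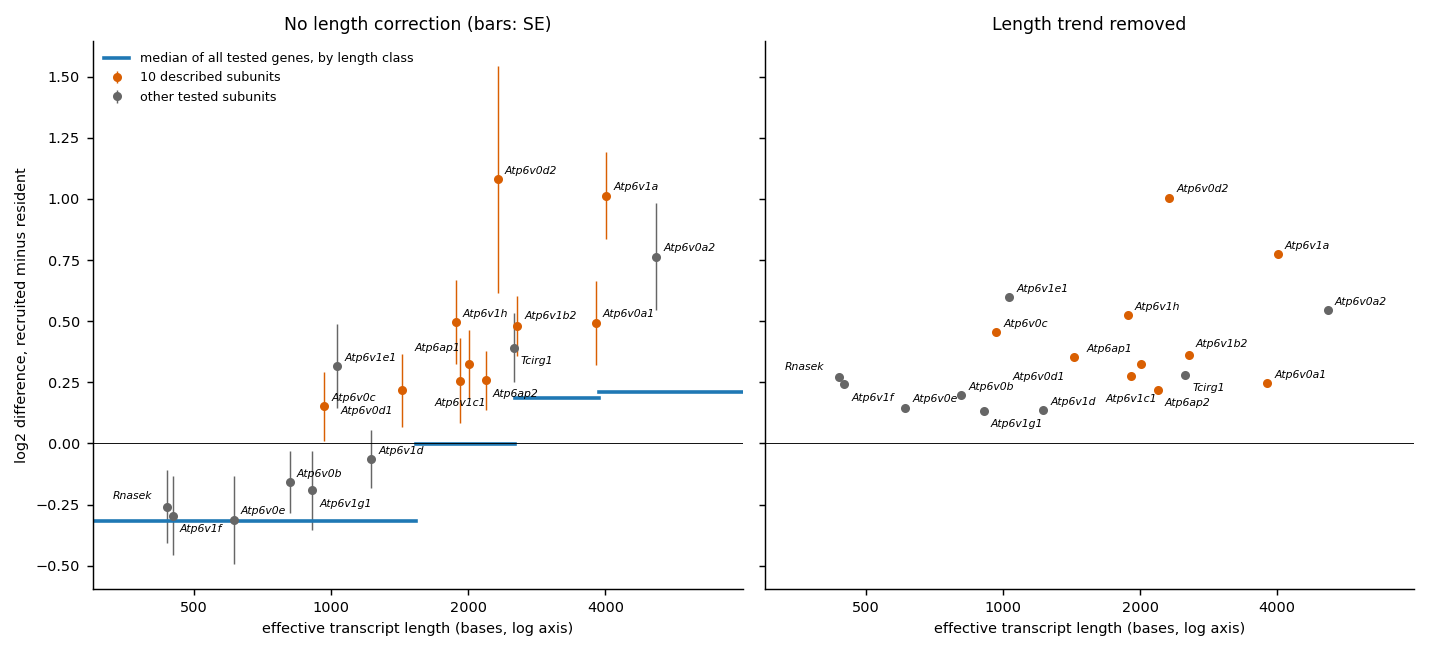
Log2 difference, recruited minus resident, against effective transcript length for 19 tested pump genes, without (left, bars SE, blue lines medians of all tested genes by length class) and with (right) removal of the length trend. The 6 genes below 0 at left all lie in the shortest class, and all 19 lie above 0 at right; Atp6v1g2, near 1 FPKM, is not drawn.

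Of the transcription factors of this group, Tfe3 was read at 116, 122 and 114 CPM in recruited and 90.6, 123 and 88.0 CPM in resident libraries, and Tfeb at 62.6, 67.6 and 53.4 against 68.4, 50.2 and 60.5 CPM. Both overlapped between groups, and 0 of 4 factors passed (lowest adjusted p 0.536, edgeR; 0 at an unadjusted p under 0.05), with a median log2 difference of 0.13, or 0.03 with the length trend removed.

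Genes that work beside the pump were described by list. Of 14 genes of lysosomal membrane proteins and ion carriers, 12 were positive, where 51.0% of all tested genes were. The median log2 difference was 0.26 and 0 passed. At an unadjusted p under 0.05, 4 were higher in recruited cells and 0 lower, where 8.13% of all tested genes were higher. With the length trend removed, 10 were positive and the median was 0.20. Lamp1, a major lysosomal membrane glycoprotein, was read at 2943, 3365 and 3476 CPM in recruited and 2653, 2383 and 2210.3 CPM in resident libraries, and Lamp2 at 910.1, 1074 and 978 against 793, 826 and 723 CPM. Neither overlapped, with log2 differences of 0.43 ± 0.13 and 0.34 ± 0.12 SE (adjusted p 0.171 and 0.232, edgeR). Clcn7 and Ostm1, which together form the chloride-proton exchanger of lysosomes and were chosen after their values were seen, averaged 202 and 216 CPM in recruited and 126 and 141 CPM in resident libraries (adjusted p 0.154 and 0.163, edgeR).

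Assembly factors and regulators of the pump gave 8 of 11 tested genes positive, a median of 0.09 and 0 past the threshold. The positive share of all tested genes was 51.0%. Only Rogdi had an unadjusted p under 0.05, lower in recruited cells, where 8.65% of all tested genes were lower. Ccdc115, which helps to assemble V0, averaged 101 ± 14.3 CPM in recruited and 98.4 ± 20.9 CPM in resident libraries (SD, n = 3 each), and Oxr1, a protein of the TLDc family, 68.6 ± 14.7 and 66.1 ± 18.7 CPM. The groups overlapped for both.

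The pump also holds the Ragulator and Rag proteins that bring mTORC1 to lysosomes. Of 13 such genes 7 were positive, where 51.0% of all tested genes were. The median was 0.04 and 0 passed. At an unadjusted p under 0.05, 3 were higher and 2 lower, where 8.13% of all tested genes were higher and 8.65% lower. With the length trend removed, 10 of 13 were positive and the median was 0.17. Rragc, a Rag GTPase, was read at 357, 356 and 462 CPM in recruited and 264, 276 and 204 CPM in resident libraries (log2 difference 0.66 ± 0.17 SE, adjusted p = 0.135, edgeR), without overlap. Lamtor5 of Ragulator was read at 200.3, 170.2 and 171 CPM in recruited and 190.5, 264 and 249 CPM in resident libraries, with a negative log2 difference of -0.38 (adjusted p = 0.284, edgeR). Rragd, chosen after its values were seen, was read at 0.597, 10.4 and 5.43 CPM in recruited replicates 1 to 3, and no resident library held a count. It entered the test only through its recruited libraries, so no p is given for it, although it counts among the 3 higher genes above.

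Because Atp6v0d2 is known from osteoclasts, 12 genes of osteoclasts and cell fusion were set beside it. Of these 8 could be tested and 4 were positive, where 51.0% of all tested genes were. The median was 0.07 and 0 passed. Only Mmp9 had an unadjusted p under 0.05, higher in recruited cells, where 8.13% of all tested genes were higher. With the length trend removed, 4 were again positive and the median was 0.20. Acp5, the phosphatase TRAP, was read at 646, 635 and 256 CPM in recruited and 326, 510.1 and 386 CPM in resident libraries, and Ctsk, the collagen-cutting cathepsin K, at 466, 637 and 312 against 241, 473 and 488 CPM. Both overlapped between groups. Calcr and Oscar, receptors that define osteoclasts, had no count in any library. Itgb3 reached no more than 0.593 CPM, and Car2 had no count in resident replicate 1. Dcstamp, Ocstamp, Nfatc1 and Tnfrsf11a had counts in every library. Dcstamp was read at 24.4, 61.3 and 36.5 CPM in recruited and 17.7, 50.4 and 85.5 CPM in resident libraries. Ocstamp was read at 2.37 to 16.4 CPM, and Nfatc1 and Tnfrsf11a at 45.5 to 105 CPM, over all libraries. The groups overlapped for each of these.

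The genes whose profile over the 6 libraries lay nearest to that of Atp6v0d2, by root-mean-square distance between centred log2 CPM values among 7529 genes with at least 10 CPM on average, were Wfs1 (0.189), Arhgap6 (0.230), Zcchc2 (0.271), Acpp (0.332) and Fbxo21 (0.343). Like Atp6v0d2, each of the 5 was highest in recruited replicate 2 and lowest in resident replicate 1, a likeness that choosing them by this distance brings with it. Wfs1 was read at 30.7, 114.7 and 30.6 CPM in recruited and 16.3, 38.4 and 33.2 CPM in resident libraries. The closest of the other 9 members was Atp6v0a1, in place 433 at a distance of 0.662.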

How the data were processed

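The authors deposited a table of expected counts per gene, not normalized, and a table of FPKM per gene, in which the authors had corrected for depth and length, per the file headers and the values. Per the labels, about 400 cells per library were amplified with SMART-Seq v4 and sequenced in pairs of 75 bases in 2 runs. The labels do not tie libraries to runs, so run and group cannot be told apart. Counts carry no molecular identifiers. The submitters' processing notes name FastQC, Trimmomatic, STAR 2.5.3a, RSEM 1.2.28, DESeq2, edgeR and the build mm10. Neither annotation nor strand setting is stated there.

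Of 24848 rows, 26 had a date in place of a symbol and were left out (0.121 to 0.138% of counts). Expected counts were rounded. The test was edgeR 4.0.16 (R 4.3.3) quasi-likelihood with TMM, filterByExpr and group as the only term, adjusted by Benjamini-Hochberg over 11354 genes at 0.05. The SE is the log2 difference divided by the square root of F. Log2 CPM used a prior count of 2. Alternatives were DESeq2 1.42.0, limma 3.58.1 on log2(FPKM + 1) or (FPKM + 0.1) and with voom, other filters and scaling, a lowess correction for length with span 0.3, and fits without single libraries. The fold change on the log2(FPKM + 1) scale understates that of low genes. Replicates within a group are separate pools of mice, and the labels used here do not say whether the groups shared pools. The procedure was tested on simulated data. Members were taken by symbol. Other subunit genes could be named from 1 FPKM up, and of each further list the genes past the threshold or, where none passed, the 2 most abundant. Some genes were named outside this rule. Among them were Itgam, Mmp8, Rogdi, Mmp9, Dcstamp, Ocstamp, Nfatc1, Tnfrsf11a, Clcn7, Ostm1 and Rragd. Members, lists and tests were chosen with earlier results of these data known. Floors of 3 counts cover counting error only, while the SE and SD also hold the spread between libraries.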

Additional observations from a re-analysis of the deposited data

How the results depend on the processing

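All 10 members kept a positive log2 difference in all 17 alternatives (170 values), and 164 of the 170 stayed on the same side of the threshold. The exceptions were Atp6v1a, called with no filter on low counts (1.02), with a filter of 10 CPM in 3 libraries (0.99), with DESeq2 (1.01), with limma on log2(FPKM + 1) (1.03) and without resident replicate 1 (range 0.85 to 1.14 over the fits that leave out 1 library), and Atp6v1b2, called with DESeq2 (0.48). Over all its alternatives the adjusted p of Atp6v1a ran from 2.06e-05 to 0.243 and that of Atp6v0d2 from 0.160 to 0.747. The number of members called higher in recruited cells was 1 with no filter, 1 with the 10 CPM filter, 2 with DESeq2, 1 with limma on log2(FPKM + 1) and 0 to 1 without 1 library, and 0 were called lower in any of the alternatives. Of the further subunits 1 was called with DESeq2 and 0 to 1 without 1 library, each time Atp6v0a2.

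Counts over all genes depended strongly on the setting. Higher and lower in recruited cells, they were 22 and 51 with the 10 CPM filter, 320 and 406 with DESeq2, 27 and 70 with limma on log2(FPKM + 1), 15 and 48 with log2(FPKM + 0.1), and 1 and 7 without a filter on FPKM, and 18 were higher with no filter on counts. Without 1 library they ran from 0 to 254 higher and from 0 to 326 lower: 0 and 1 without recruited replicate 1, 0 and 0 without recruited replicate 2 (603 and 655 at an unadjusted p under 0.05), 3 and 10 without recruited replicate 3, 254 and 326 without resident replicate 1, 0 and 3 without resident replicate 2, and 1 and 4 without resident replicate 3. Without resident replicates 2 and 3, an alternative chosen after seeing the data which takes the spread of the recruited libraries for the single resident one, 5 were lower, 1 of 10 members had an unadjusted p under 0.05 and 8 of 10 further subunits were positive, against 4 of 10 with all libraries. The causes were not tested.

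Sample names number the groups alike, but the labels used here do not say whether same-numbered libraries came from the same mice. Their deviations had correlations of 0.0155, 0.0626 and 0.0488. Recruited replicate 1 was closest to resident replicate 2 (0.0189), and recruited replicate 3 to resident replicate 1 (0.0588). All correlations between the groups lay between -0.0925 and 0.0626, too near 0 to decide on a pairing. The main fit therefore used none, and a fit with the replicate number as a block is given beside it. With the replicate block the log2 difference was 1.04 for Atp6v1a (adjusted p = 0.0880) and 0.99 for Atp6v0d2 (adjusted p = 0.160), no member was called, and the exact sign-flip test of the log2 ratio of the d genes gave p = 0.25, the smallest that 3 pairs can give. Leaving out 1 library moved that ratio between 0.18 and 1.13. The biological coefficient of variation was 0.286 in recruited and 0.605 in resident libraries.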
